A study of Mus musculus with 6 samples.

Results

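miR-320 and miR-484 are miRNAs whose precursors bypass Drosha, and 3 of the 2009 names in the deposited table belong to them: mmu-miR-320-3p, mmu-miR-320-5p and mmu-miR-484, taken by exact match of the name. They were followed in 3 I/R hearts and 3 sham hearts of male mice. Every heart was isolated and perfused on a Langendorff system, so no heart was supplied by the animal's own circulation. In the I/R group the beat was stopped for 30 min by Tomas cardioplegia, and reperfusion lasted 1 h; sham hearts were not arrested. The labels give neither strain nor age, call the replicates biological, and describe poly(A) mRNA kits although the titles say miRNA-seq. The question named by the study was which miRNAs differ between its ischemia-reperfusion model and sham hearts.

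Most miRNAs are cut from a long primary transcript by the nuclease Drosha. The transcripts of miR-320 and miR-484 instead begin at the hairpin itself, carry a cap on their first base, leave the nucleus through Exportin 1 and go straight to Dicer, as shown in mouse cells. The cap hinders the 5p strand of pre-miR-320 from entering Argonaute, the protein that carries the mature strand. In heart muscle cells miR-320 is known for repressing Hspb6, the small heat shock protein Hsp20, and miR-484 for repressing Fis1, a receptor for the mitochondrial fission machinery.

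The mature miR-484 sequence and its hairpin are shown because they place the measured strand within its precursor. The hairpin lies at chr16:14159626-14159692 on the plus strand and the mature sequence at chr16:14159630-14159651 (RefSeq sequences, GRCm38.p6). Capitals mark the seed, bases 2 to 8, in the first line and the mature strand in the second.
miR-484: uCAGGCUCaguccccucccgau
miR-484 hairpin: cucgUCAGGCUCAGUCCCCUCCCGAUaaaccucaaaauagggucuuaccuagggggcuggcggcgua
The mature strand takes up bases 5 to 26 of the 67 bases and is therefore on the 5′ side of the hairpin. The table gives miR-484 1 name without an arm ending, so its 2 arms could not be compared. Its seed was shared by 0 other names among the 1679 mature mouse names searched in the RefSeq table. G and C made up 63.6% of the mature sequence, against a median of 47.6% over the 343 measured miRNAs with a sequence, of which 24 others had at least as much.

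The Mir320 hairpin lies on the plus strand of chromosome 14 at 70443510 to 70443591 (GRCm38, GENCODE M21). No annotated gene overlaps it, and the start of Polr3d, which encodes a subunit of RNA polymerase III, lies 63 bases away on the opposite strand. Mir484 lies opposite to Marf1, an exon of which shares hairpin bases 14159674 to 14159692. The mature miR-484 shares 0 bases with that exon and is opposite to an intron. The strand setting of the counting is not given in the sources used here, so Marf1 reads over the hairpin could not have been told from its own without strand. The start of Nde1 lies 3583 bases downstream on the same strand.

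Fis1 offered one sequence to set beside the seed. Its longest transcript in GENCODE M21 has 948 bases with the coding part at 293 to 730, and the 7 bases that pair with the miR-484 seed, GAGCCTG, occur there once, at 768 to 774 in the 3′ untranslated part. The stretch at bases 757 to 785, with that match in capitals, reads as follows.
Fis1: gggacgcctagGAGCCTGggggacactgg
The same 7 bases, searched on the transcript strand, were in 12.4% of the 1875 longest transcripts within 20% of this length and in 35.7% of all 21877 protein-coding genes. The match is a description of the letters. It lies outside the coding part, which holds no such match, and is not given as the site of the known repression. Fis1 mRNA was not measured in these libraries.

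The recovered reads summed over all names to between 7874103 and 9197869 per library. Levels are given in RPM, these reads scaled to a total of 1000000 per library. The rule for several matches is not known, and a read given to several names would count under each. miR-24-3p and miR-3074-5p, for example, averaged 5517 and 5505 RPM in I/R hearts and 5058 and 5054 RPM in sham hearts. Whether these names share reads was not tested. All 5 cardiac muscle marker miRNAs were present and summed to 357830 to 383233 RPM in I/R hearts and 385460 to 389859 RPM in sham hearts. The sum was lowest in I/R replicate 3, and the groups did not overlap. Most of it was miR-1a-3p, which averaged 365121 RPM in I/R and 380232 RPM in sham hearts. Of the 5 markers only miR-1a-3p had separate groups, lower in I/R hearts, a pattern found for 3.91% of all names. The groups overlapped for each of the other cardiac muscle markers. The 2 endothelial markers summed to 25829 to 31830 RPM in I/R and 24893 to 27478 RPM in sham hearts, and the 4 smooth muscle and fibroblast markers to 41341 to 50039 RPM and 35740 to 46968 RPM. The latter sum was nearly all miR-143-3p, which averaged 44146 RPM in I/R and 40066 RPM in sham hearts. The log2 differences of these 4 markers were positive for 3 and negative for 1. The 3 red blood cell markers were scarce, summing to 1.65 to 5.26 RPM in I/R and 3.33 to 6.96 RPM in sham hearts, and the 5 leukocyte markers summed to 119 to 122 RPM and 109 to 144 RPM. Of the 4 markers of other tissues the neuronal miR-124-3p had 0 reads in every library, and all 4 together held 159 to 218 RPM in I/R and 138 to 193 RPM in sham hearts. In bulk tissue, fewer cells of a type and less of a miRNA per cell cannot be told apart.

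miR-320-3p, the strand that represses Hspb6, was more abundant than miR-484. It stood at 235, 189 and 258 RPM in I/R replicates 1 to 3, against 211, 201 and 203 RPM in sham replicates 1 to 3. I/R replicates 1 and 3 were above every sham heart and I/R replicate 2 was below every sham heart, so the groups overlapped. These values rest on 1549 to 2029 reads in I/R and 1644 to 1942 reads in sham libraries. The 95% exact Poisson interval, which covers counting error only, was 180 to 199 RPM for the lowest I/R heart and 247 to 269 RPM for the highest. These intervals do not meet, while those of the 3 sham hearts, from 192 to 221 RPM in all, overlap each other.

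The level averaged 227 ± 34.8 RPM in I/R hearts and 205 ± 5.35 RPM in sham hearts (SD, n = 3 each). limma gave a log2 difference of 0.14 (SE 0.13, 95% interval -0.16 to 0.44), a 1.10-fold level, with an adjusted p of 0.744 over the 409 miRNA names tested. The interval includes 0, and the difference was smaller than the spread among I/R hearts. A fall below 0.894-fold or a rise above 1.35-fold lay outside the interval on this scale. The value depended on single hearts, at 0.26 without I/R replicate 2 and 0.04 without I/R replicate 3, with adjusted p of 0.545 and 0.956 in limma. It was 0.03 with median-ratio scaling, 0.02 with TMM scaling and 0.07 when the 10 most abundant names were left out of the totals.

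The spread of miR-320-3p in RPM differed between the groups, although a difference in spread was not tested with 3 hearts each. In I/R hearts its SD was 6.56 times what counting alone gives and its coefficient of variation 15.3%. In sham hearts the SD was 1.10 times the counting SD and the coefficient 2.61%. Of 47 other miRNAs within 2-fold of its level, 13 had a higher coefficient of variation in I/R hearts and 47 in sham hearts. None of the 47 was thus closer between sham hearts than miR-320-3p in RPM, the only scale on which they were compared. Its sham hearts, at 201 to 211 RPM, spread to 202 to 228 with median-ratio scaling and 204 to 229 with TMM scaling. Its I/R hearts, at 189 to 258 RPM, lay at 188 to 236 and 187 to 234 under these scalings. The narrow sham spread therefore depended on the scaling.

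miR-320-5p, the strand across the hairpin, was at the limit of detection. It had 1, 0 and 0 reads in I/R replicates 1 to 3, against 0 reads in each sham replicate. A count of 0 allows up to 0.367 and 0.381 RPM in the other two I/R libraries and 0.326 to 0.370 RPM in the sham libraries. Both groups were at or under this limit, so no difference between them can be given, and the name did not pass the filter for testing.

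The 3p arm therefore held nearly all miR-320 reads in both groups. The 5p arm made up 0.0182% of 5506 reads in I/R hearts (exact Clopper-Pearson 95% interval 0.000460% to 0.101%). In sham hearts it had 0 of 5365 reads (same kind of interval, 0% to 0.0687%). In the 5 libraries without a 5p read, the 3p arm was at least 516-fold to at least 676-fold above a floor of 3 reads. In I/R replicate 1 the 5p share was 0.0519% (interval 0.00131% to 0.289%).

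**Figure D1:**
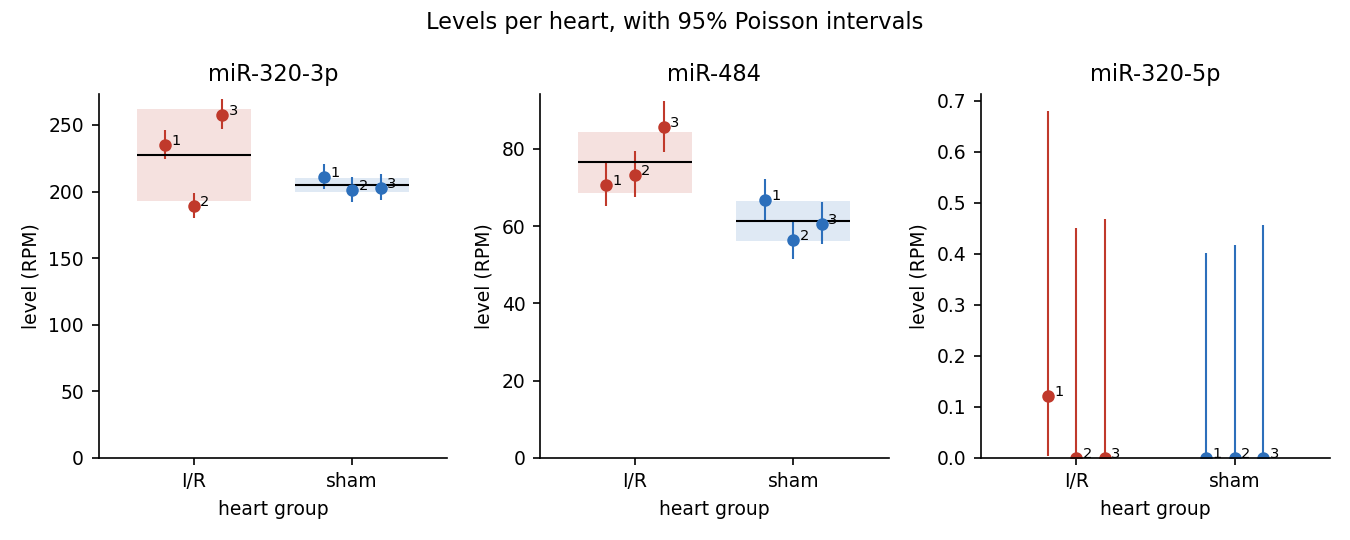
Levels of miR-320-3p, miR-484 and miR-320-5p in RPM (y axis, from 0, with a scale of its own in each panel) for the 3 I/R hearts, left, and the 3 sham hearts, right. Points are hearts with their replicate number and 95% exact Poisson interval; lines and bands are group means ± SD, left out for miR-320-5p. For miR-320-3p the I/R hearts lie between 189 and 258 RPM around sham hearts at 201 to 211 RPM, and for miR-484 the lowest I/R heart, at 70.8 RPM, is above the highest sham heart, at 66.8 RPM.

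Other precursors were as one-sided. Of 617 precursors with both arms listed and at least 1 read, 114 had 1107 reads or more, against 10871 for miR-320, and their median share of the minor arm was 1.13%. miR-320, at 0.00920% over all libraries, ranked 14 from the lowest. Among the 54 precursors with at least as many reads, 8 others had a lower share, and these were miR-1b, miR-21a, miR-99a, miR-192, let-7g, miR-499, miR-101a and miR-100. All 8 have at least the reads of miR-320, and a deeper precursor can show a smaller share. Some precursors may also share reads. miR-1b-5p averaged 182563 RPM in I/R and 190133 RPM in sham hearts, beside 365121 and 380232 RPM for miR-1a-3p. Over all libraries miR-486a had 75664 reads on 5p and 85060 on 3p, and miR-486b 85484 on 5p and 75704 on 3p. Whether such names share reads was not tested, and the ranks count each precursor as separate. A change of arm balance between I/R and sham was called for 0 of the 94 precursors tested in limma (0%), and miR-320 was not among them because of its 5p arm.

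**Figure D2:**
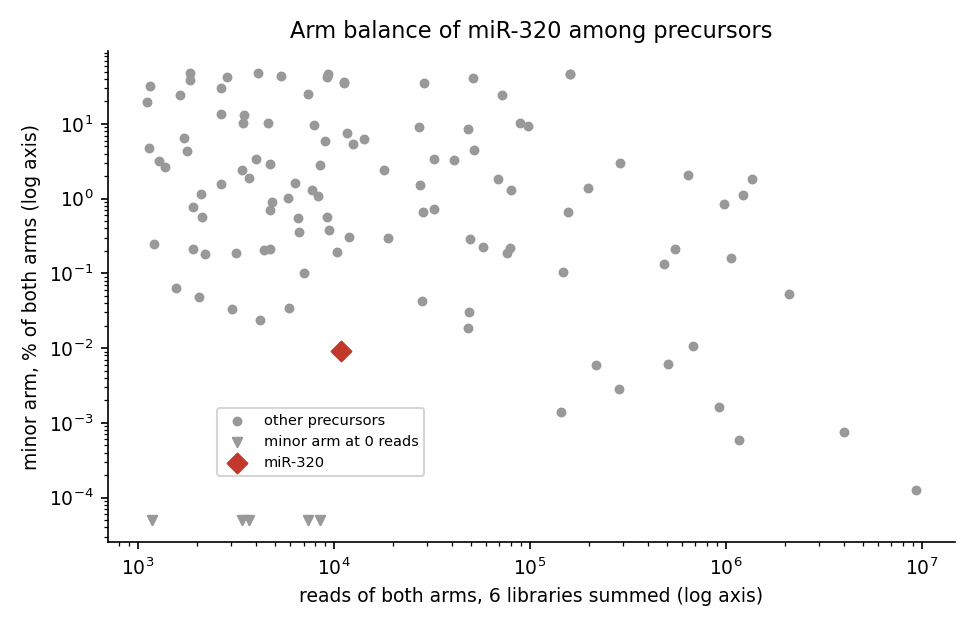
Share of the minor arm in percent of both arms (y axis, log) against the reads of both arms summed over 6 libraries (x axis, log), for the 114 precursors with 1107 reads or more. miR-320 (diamond) has 10871 reads and a minor share of 0.00920%; triangles, drawn at an arbitrary height under the scale, are 5 precursors with 0 reads on the minor arm.

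miR-484, the miRNA known for repressing Fis1, was higher in RPM in each I/R heart than in any sham heart. It stood at 70.8, 73.2 and 85.6 RPM in I/R replicates 1 to 3, against 66.8, 56.4 and 60.6 RPM in sham replicates 1 to 3. The gap between the groups was narrow, 70.8 against 66.8 RPM, and the exact Poisson intervals of these neighbours, 65.1 to 76.8 RPM and 61.6 to 72.2 RPM, overlap. Separation of this kind was found for 46 of the 409 names on the higher side (11.2%) and for 16 on the lower side (3.91%) in RPM. That lean depended on the scaling, with 25 higher and 33 lower under median-ratio scaling, 23 and 33 under TMM scaling, and 31 and 28 when the 10 most abundant names were left out of the totals. The values rest on 580 to 674 reads in I/R and 491 to 614 reads in sham libraries.

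The level of miR-484 averaged 76.5 ± 7.94 RPM in I/R hearts and 61.3 ± 5.21 RPM in sham hearts (SD, n = 3 each). In limma the log2 difference was 0.32 (SE 0.13, 95% interval 0.02 to 0.61), a 1.24-fold level, with an unadjusted p of 0.0407 and an adjusted p of 0.598. It did not pass the threshold of 0.05. At an unadjusted p under 0.05 there were 29 names on the higher side (7.09%) and 1 on the lower side (0.244%), and miR-484 ranked 25 of 409 by p. Under median-ratio scaling 15 names were on the higher and 12 on the lower side at that p, under TMM scaling 11 and 13, and without the 10 most abundant names 16 and 6. With TMM scaling the log2 difference was 0.20, as it was in edgeR. The groups overlapped with median-ratio and with TMM scaling, where the lowest I/R heart was at 70.0 and 69.8 RPM and the highest sham heart at 72.0 and 72.5 RPM. They stayed apart when the 10 most abundant names were left out of the totals, at 71.3 RPM in the lowest I/R heart against 68.8 RPM in the highest sham heart, as did 31 of the 409 names on the higher side under that scaling (7.58%).

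Over all names, limma called 0 of 409 (0%) at an adjusted p under 0.05, and 30 had an unadjusted p under 0.05. On recovered reads there were 0 calls by edgeR and 2 by DESeq2, beside 26 and 17 names whose unadjusted p was under 0.05. With the replicate number as a block limma called 4 names (0.978%), miR-5103, miR-6240, miR-3968 and miR-3963, named here after their values were seen and not related to the capped miRNAs. For miR-320-3p this blocked limma fit gave an adjusted p of 0.689, and for miR-484 one of 0.342. The labels pair no I/R heart with a sham heart. Between hearts of equal replicate number, 1, 2 and 3, the log2 difference, I/R minus sham, was 0.15, -0.09 and 0.34 for miR-320-3p. For miR-484 it was 0.08, 0.37 and 0.49.

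In RPM a positive log2 difference was found for 287 of the 409 names (70.2%), with a median of 0.10. The share was 51.1% with median-ratio scaling, 48.4% with TMM scaling and 57.9% with the 10 most abundant names left out of the totals. Against that median, miR-320-3p stood 0.04 higher and miR-484 0.21 higher on the log2 scale, and 167 and 61 names had larger differences. With median-ratio, TMM and top-excluded scaling the median of all names was 0.01, -0.01 and 0.04, and miR-484 stood 0.21 above it in each. The deposited columns have equal totals. The summed cardiac muscle markers, mostly miR-1a-3p, were lower in every I/R heart than in any sham heart. Each of the other cardiac muscle markers overlapped between the groups. The lowest sum was in I/R replicate 3, where miR-320-3p and miR-484 were both highest. The part of these markers in the differences was not tested.

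**Figure D3:**
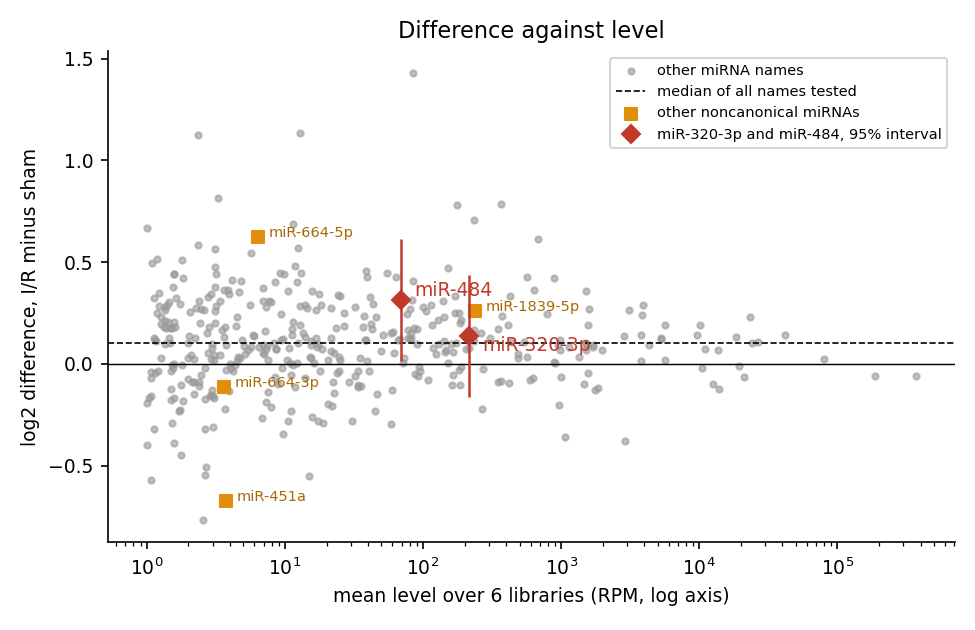
The log2 difference, I/R minus sham, from limma on log2(RPM + 1) (y axis) against the mean level over 6 libraries in RPM (x axis, log) for 409 miRNA names. Diamonds with 95% intervals mark miR-320-3p at 0.14 and miR-484 at 0.32, squares mark the 4 other noncanonical miRNAs that passed the filter, and the dashed line is the median of all names, 0.10.

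The proportion of miR-320-3p to miR-484 varied between hearts. miR-320-3p held 3.32, 2.59 and 3.01 times the reads of miR-484 in I/R replicates 1 to 3, against 3.16, 3.57 and 3.35 times in sham replicates 1 to 3. The lowest ratio was in I/R replicate 2, the heart with the least miR-320-3p, and the groups overlapped. The log2 ratio averaged 1.56 ± 0.18 in I/R hearts and 1.75 ± 0.09 in sham hearts (SD, n = 3 each). The ratio does not depend on the scaling of the libraries, and it was given no test because the pair was chosen with results known. The 3 names together held 306, 263 and 343 RPM in I/R replicates 1 to 3, against 278, 257 and 264 RPM in sham replicates 1 to 3.

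By mean level over the 6 libraries miR-320-3p ranked 81 and miR-484 134 of the 2009 names. In single libraries the ranks were 79 to 88 for miR-320-3p and 126 to 141 for miR-484. All names were scaled with 1 length, so the order is one of reads. Next to miR-320-3p stood miR-3963 above it, at 235 RPM against 216 RPM over the 6 libraries, and miR-1843a-5p below it at 214 RPM. Next to miR-484, at 68.9 RPM, stood miR-150-5p, a lymphocyte miRNA, at 72.1 RPM and miR-20a-5p, of the miR-17/92 cluster, at 68.0 RPM. miR-3963 averaged 294 ± 125 RPM in I/R and 176 ± 56.3 RPM in sham hearts, so it did not differ from miR-320-3p beyond its spread. By the mean over the 6 libraries, on which they were chosen, the other neighbours differed from their member by less than its SD among I/R hearts. Within a group the gap could be larger, as miR-150-5p averaged 72.2 ± 10.2 RPM in sham hearts against 61.3 ± 5.21 RPM for miR-484.

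The names whose levels ran most like those of the capped miRNAs were sought among the 113 other names with a mean of at least 100 RPM, by Pearson's r of log2(RPM + 1) over the 6 libraries. For miR-320-3p they were miR-191-5p (r = 0.97), miR-151-3p (r = 0.91) and miR-149-5p (r = 0.90). miR-191-5p, a broadly expressed miRNA, stood at 573, 506 and 606 RPM in I/R replicates 1 to 3, against 519, 512 and 528 RPM in sham replicates 1 to 3. It shared with miR-320-3p the low I/R replicate 2, the high I/R replicate 3 and the close sham hearts. For miR-484 they were miR-676-5p (r = 0.96), miR-92a-3p of the miR-17/92 cluster (r = 0.89) and miR-671-3p (r = 0.88). miR-676-5p stood at 98.7, 112 and 120 RPM in I/R replicates 1 to 3, against 94.5, 85.7 and 91.2 RPM in sham replicates 1 to 3. Its groups were separate, as were those of 11.2% of all names on the higher side in RPM. It was picked for its likeness to miR-484, so its separation adds nothing to that of miR-484. The r of miR-320-3p with miR-484 was 0.66. All points share their library and its total, so these values describe likeness only.

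Other miRNAs that skip a step of the usual pathway were mostly scarce in these hearts, as were most names listed. Of 11 such names 4 passed the filter, beside 409 of all 2009 names. Of the 4, 0 were called higher and 0 lower. The log2 differences of those 4 were positive for 2 and negative for 2, with a median of 0.07 beside 0.10 over all names. That median took either sign among the alternatives, from -0.075 in edgeR to 0.18 without I/R replicate 2 over the same 4 names. Among the mirtrons, short introns folded into hairpins, miR-1224-5p, miR-1224-3p, miR-702-5p and miR-702-3p had 0 reads in every library. miR-877-5p had 10, 2 and 4 reads in I/R replicates 1 to 3, against 1, 6 and 4 reads in sham replicates 1 to 3. miR-877-3p, its partner arm, had 4, 4 and 6 reads in I/R replicates, against 2, 5 and 2 reads in sham replicates.

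The mature sequences of the 4 that passed are given to show that the seed of each, in capitals, differs from that of miR-484 (RefSeq, GRCm38.p6).
miR-1839-5p: aAGGUAGAuagaacaggucuug
miR-664-5p: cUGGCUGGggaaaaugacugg
miR-664-3p: uAUUCAUUuacuccccagccua
miR-451a: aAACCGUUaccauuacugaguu
They lie at chr7:81529919-81529940, chr1:185242975-185242995, chr1:185243012-185243033 and chr11:78073186-78073207, all on the plus strand. In GENCODE M21 miR-1839-5p overlaps an annotated small Cajal body RNA and both miR-664 arms the small nucleolar RNA Snora36b. miR-451a is cut by Drosha but matured by Argonaute 2 without Dicer.

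miR-1839-5p, at nearly the level of miR-320-3p, was the one of the 4 with separate groups, a pattern found for 11.2% of all names on the higher side. It stood at 252, 234 and 291 RPM in I/R replicates 1 to 3, against 207, 218 and 220 RPM in sham replicates 1 to 3. Its log2 difference was 0.26 (SE 0.12), with an adjusted p of 0.598 in limma. It was 0.16 with median-ratio scaling, 0.14 with TMM scaling and 0.17 without I/R replicate 3, and the groups were apart under both scalings. miR-664-5p stood at 7.69, 6.36 and 9.40 RPM in I/R replicates, against 3.81, 7.46 and 3.46 RPM in sham replicates. Its groups overlapped, and its log2 difference was 0.63 (SE 0.26, limma adjusted p = 0.598), or 0.26 with a pseudocount of 10 RPM. The partner arm miR-664-3p was at 3.90, 2.57 and 3.68 RPM in I/R replicates, against 3.91, 5.09 and 2.47 RPM in sham replicates, a log2 difference of -0.11 (SE 0.25) whose sign turned without I/R replicate 2 or sham replicate 2. For miR-451a, abundant in red blood cells, the level was 2.07, 4.77 and 1.4 RPM in I/R replicates, against 6.09, 4.97 and 3.09 RPM in sham replicates, with a log2 difference of -0.68 (SE 0.34, limma adjusted p = 0.628) and overlapping groups. That difference was -1.04 without I/R replicate 2, -0.40 without I/R replicate 3 and -0.21 with a pseudocount of 10 RPM. As this miRNA is also a red blood cell marker, residual blood and heart tissue could not be told apart for it.

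Since miR-484 is known through Fis1, it was set beside miRNAs reported to act on genes of mitochondrial fission or mitophagy in heart muscle cells. All 14 names were listed, 11 passed the filter, and 0 of the 11 were called higher and 0 lower. The log2 differences of the 11 were positive for 6 and negative for 5, with a median of 0.02 beside 0.10 over all names, and -0.09 beside 0.01 with median-ratio scaling. All I/R hearts were above all sham hearts for 0 of the 11 and below them for 1, miR-30e-5p, which averaged 1688 ± 82.9 RPM in I/R and 1846 ± 53.4 RPM in sham hearts (SD, n = 3 each; limma adjusted p = 0.661). Over all names the shares were 11.2% above and 3.91% below. miR-761, reported to repress the fission factor Mff, had 0 reads in every library.

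The most abundant names of this group were far above miR-484 in level. miR-30d-5p averaged 20428 ± 470 RPM in I/R and 21439 ± 1868 RPM in sham hearts, and miR-30a-5p 19319 ± 897 RPM and 19469 ± 838 RPM (SD, n = 3 each). The miR-30 family is known for holding down p53, upstream of the fission protein Drp1. miR-499-5p, encoded within the myosin gene Myh7b and known for acting on calcineurin upstream of Drp1, averaged 5679 ± 500 RPM in I/R and 5602 ± 354 RPM in sham hearts. miR-30c-5p averaged 3797 ± 253 RPM in I/R and 3767 ± 401 RPM in sham hearts. Their log2 differences were -0.07 for miR-30d-5p, -0.01 for miR-30a-5p and 0.02 for both miR-499-5p and miR-30c-5p, with limma adjusted p of 0.792 to 0.968. The signs for miR-499-5p and miR-30c-5p turned under every other scaling of the libraries, and all 4 turned when single libraries were left out. Elsewhere in the list, miR-140-3p had a log2 difference of 0.42 (SE 0.22, limma adjusted p = 0.628) and miR-140-5p one of 0.31 (SE 0.23, limma adjusted p = 0.674), beside 0.32 for miR-484, and both had overlapping groups. The miR-140 arms were named after their values were seen, and no difference between miR-484 and the names of this list was tested.

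**Figure D4:**
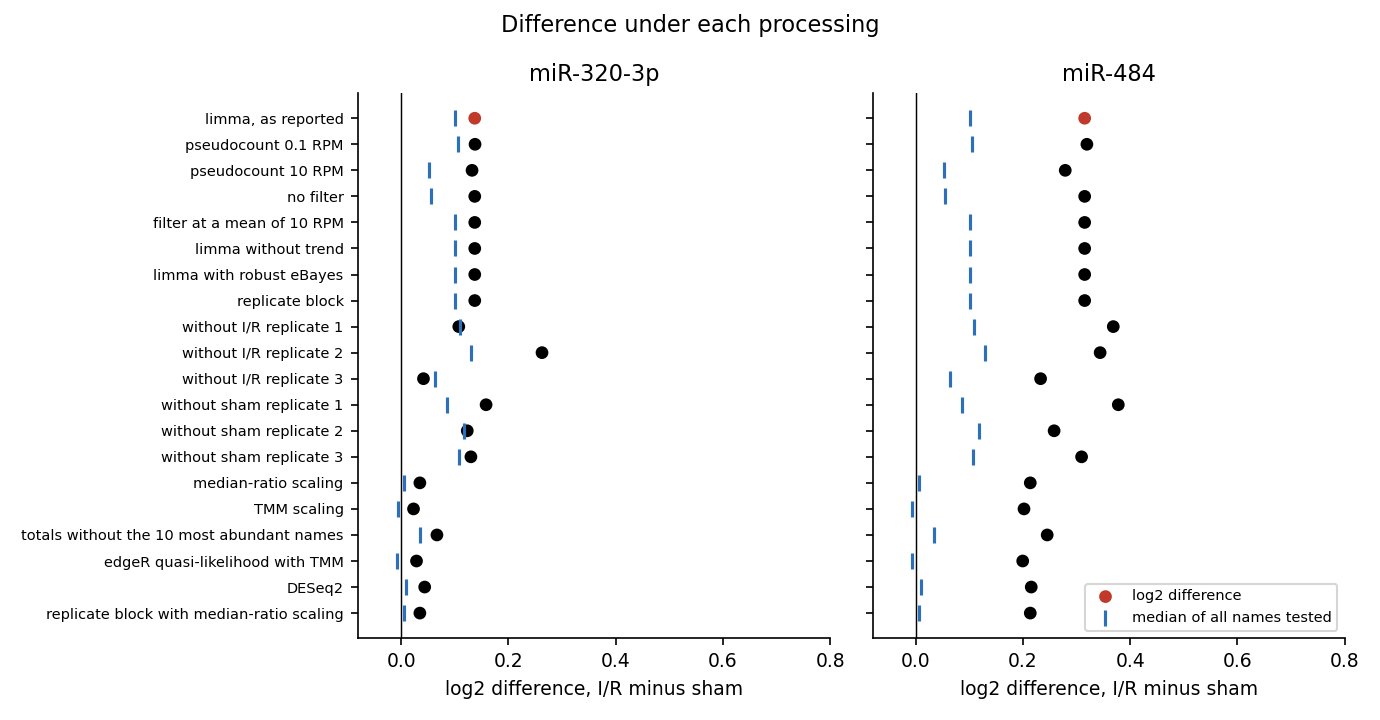
The log2 difference, I/R minus sham (x axis), of miR-320-3p, left, and miR-484, right, as reported (red) and under each of 19 other ways of processing (black, 1 row each), with the median over all names tested (vertical tick). All values are above 0, from 0.02 to 0.26 for miR-320-3p and from 0.20 to 0.38 for miR-484.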

How the data were processed

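The 6 libraries are mouse heart miRNA-seq by their titles, and groups and replicate numbers follow the labels. Values in the deposited table are a signal for each mature miRNA in each library, named FPKM by the authors. The submitters' processing notes list bcl2fastq 2.19.1.403, fastp 0.23.0 and, as genome, mm10. How reads were aligned and assigned to miRNAs, with which strand setting and with what rule for several matches, is not given in the sources used here. Every deposited signal was checked to be a whole multiple of 1 step per library (100% of values within 0.01 reads), and all columns had 1 total, as RPM divided by 23.0 nt would. Division gave whole reads, which were rescaled to RPM. Each level is thus a share of its library, so a fall in abundant miRNAs raises the others. No source used here speaks of molecular identifiers, so intervals cover counting error only.

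The 409 names averaging 1 RPM or more, with reads in at least 3 of 6 libraries, entered limma 3.58.1 (R 4.3.3), fitted to log2(RPM + 1) with the variance allowed to follow the level. Changes of low miRNAs come out too small on this scale. Tests were two-sided, and p was adjusted by Benjamini-Hochberg over all names with a threshold of 0.05. The fit was tested on simulated data whose changes were larger than the differences of miR-320-3p and miR-484. That test therefore does not show whether differences as small as theirs would be called. Arm balance was tested likewise on the log2 ratio of 5p to 3p. Alternatives were the pseudocount, filter, model, scaling, single libraries left out, a replicate block, and edgeR 4.0.16 and DESeq2 1.42.0 on recovered reads. Deviations from the group means had r of 0.14, 0.28 and 0.16 for I/R and sham libraries of equal number and -0.19 to 0.07 for the rest, so the numbers were taken to pair libraries, from these data and not from the labels. The labels name no separate animals, so p-values measure the spread between these samples, part of which may be technical.

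The members and lists were chosen with earlier results of these data known. The text names the members, up to 4 names per list by level, names next in level, the 3 most correlated names per member and called names; other names were chosen after their values were seen. The RefSeq table matched 1 of the 3 member names, miR-484.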

Additional observations from a re-analysis of the deposited data

How the results depend on the processing

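The log2 differences of miR-320-3p and miR-484 were above 0 and not called under all 19 alternatives run, from 0.02 to 0.26 with limma, edgeR or DESeq2 adjusted p of 0.545 to 0.996, and from 0.20 to 0.38 with adjusted p of 0.342 to 0.950. With single libraries left out they ran from 0.04 to 0.26 and from 0.23 to 0.38. The count of called names was 1 without a filter (miR-5103), 4 with the replicate block, 4 with the replicate block and median-ratio scaling, 2 in DESeq2 and 0 to 1 without single libraries (miR-27a-5p without sham replicate 2); these names were chosen after their values were seen. The block, which pairs libraries by number, changed no call of a member. Arm balance was called for 0 precursors under all 13 alternatives run. No alternative gave a value for miR-320-5p or for its ratio to the 3p arm, since both groups lay at or under 3 reads. For the 8 names of the lists, alternatives were chosen after seeing the data, and 3 kept their sign under all of them. With median-ratio scaling (alone and with the replicate block), TMM scaling, totals without the 10 most abundant names, edgeR and DESeq2, miR-499-5p turned to -0.085, -0.097, -0.053, -0.094 and -0.079, and miR-30c-5p to -0.088, -0.10, -0.056, -0.10 and -0.086. The cause was not tested. Without single libraries miR-499-5p ran from -0.053 to 0.064, miR-30c-5p from -0.074 to 0.076, miR-30a-5p from -0.049 to 0.013, miR-30d-5p from -0.12 to 0.0023, miR-664-3p from -0.33 to 0.073, miR-664-5p from 0.45 to 0.92, with the highest without sham replicate 2, miR-1839-5p from 0.17 to 0.33 and miR-451a from -1.04 to -0.40. A count of 0, taken to allow up to 3 reads, allows 0.326 to 0.381 RPM at this depth, which limits statements on miR-320-5p and the mirtrons.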
